A study of Mus musculus with 9 samples.

Results

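Mouse embryonic stem (ES) cells carrying a Nanog transgene were compared with ES cells carrying an EGFP transgene, both cultured without leukaemia inhibitory factor (LIF). Genes were taken as members when both Nanog libraries stood at least 2-fold away from the EGFP library in the same direction and the higher library of each ratio held at least 5 CPM (counts scaled to the size of the library). Of 10472 genes with at least 5 CPM in one of the 3 libraries, 1155 met this rule, 495 of them higher and 660 lower in both Nanog libraries. The groups were Nanog WT without LIF, Nanog L122A without LIF and EGFP without LIF, with 1 library each. The title of the series concerns mutants of the Nanog homeodomain, the part of the protein that binds DNA, and L122A is one of them, named for a leucine replaced by an alanine. All 3 transfectants were made in RF8 mouse ES cells and kept in KO-DMEM with 15% fetal calf serum, 1000 U/ml LIF and 2 µg puromycin before LIF was left out. The series holds 9 libraries, the 3 transfectants each with LIF, without LIF, and without LIF but with 5 µM retinoic acid (RA). The sources used here give neither the time in each culture, nor the species and promoter of the transgenes, nor whether a transfectant is 1 clone or several.

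LIF is a cytokine that signals through STAT3 and keeps mouse ES cells in the naive state of pluripotency, the state of the early epiblast before implantation. Without it, ES cells in serum leave that state through a formative stage, marked by Fgf5 and Otx2, and go on towards the primitive streak, from which mesoderm and endoderm arise, or towards other lineages. Nanog is a homeodomain transcription factor of the naive network, and ES cells given extra Nanog are known for renewing themselves without LIF.

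The 9 libraries held 24166395 to 28714988 counts over genes, and the 3 without LIF held 26076780 for Nanog WT, 24386322 for Nanog L122A and 26922401 for EGFP. With 1 library for each combination, a trait of the EGFP line or of its culture cannot be told apart from the effect of the transgene. The EGFP library without LIF stood apart from the other 8 on the second principal component of log2 CPM, at -91.0 against -21.3 to 46.4, a component that held 14% of the variance. Ribosomal RNA genes took 9.44% of the counts in Nanog WT, 11.7% in Nanog L122A and 9.38% in EGFP without LIF, and mitochondrial genes took 9.58%, 11.5% and 5.87% in the same order. Of 19 mitochondrial genes with 5 CPM, 10 were higher and 0 lower in both Nanog libraries. The part of these differences in the results was not tested. The 5 markers of ES cells (Pou5f1, Sox2, Nanog, Zfp42 and Sall4) summed to 1254 CPM in Nanog WT, 1821 CPM in Nanog L122A and 696 CPM in EGFP, with none at 0. Zfp42 alone held 599 CPM, 1113 CPM and 59.4 CPM of these sums, so most of the gap came from this gene. Of the 5 markers, 2 were at least 2-fold higher in both Nanog libraries. In bulk samples, fewer cells of a type and less RNA per cell cannot be told apart, which holds for every gene group that follows.

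**Figure D1:**
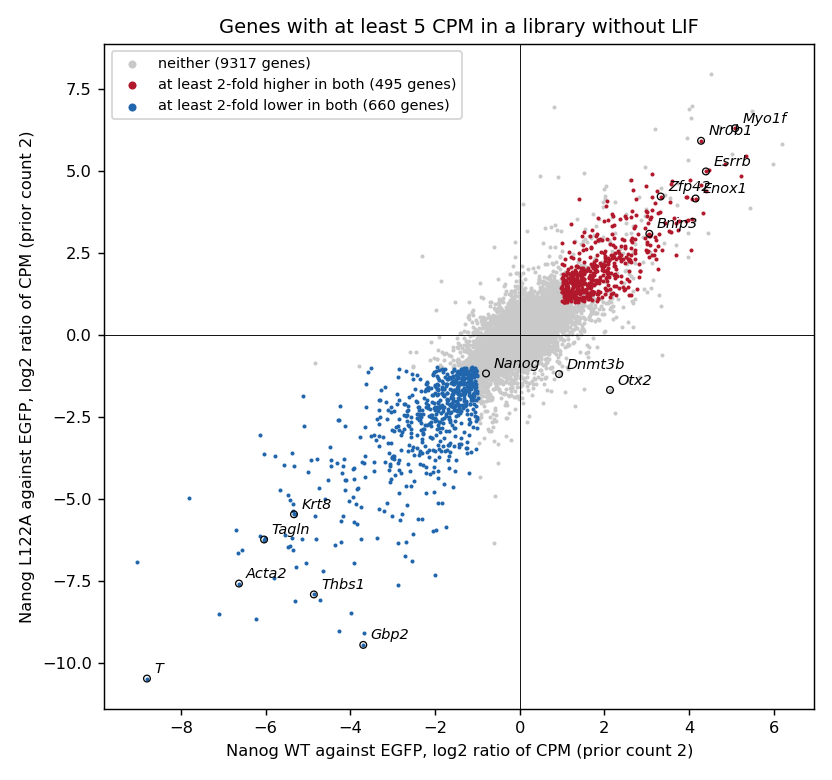
Log2 ratio to EGFP without LIF for Nanog WT (horizontal axis) and Nanog L122A (vertical axis), 1 point per gene with at least 5 CPM in one of the 3 libraries (10472 genes). Coloured points are the 495 genes at least 2-fold higher and the 660 at least 2-fold lower in both Nanog libraries, and the median of all genes lies near 0 on both axes.

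The counts on the Nanog gene itself were lower, not higher, in the Nanog transfectants. Nanog had 168 CPM in Nanog WT and 129 CPM in Nanog L122A, against 291 CPM in EGFP without LIF. Both Nanog libraries therefore stood below EGFP, by 1.74-fold (95% interval 1.67 to 1.80) in WT and by 2.26-fold (2.16 to 2.36) in L122A. These intervals, like all those given for ratios here, are exact Poisson intervals and cover counting error only. The same order held with LIF, at 221 CPM in Nanog WT and 239 CPM in Nanog L122A, against 385 CPM in EGFP. With RA the order turned round, at 195 CPM and 259.7 CPM in the Nanog libraries, against 0.871 CPM in EGFP. How far transgene transcripts enter these counts cannot be told from a table of gene counts, so they do not check the labels of the libraries without LIF.

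The members made up 4.73% of the genes with 5 CPM on the higher side and 6.3% on the lower side. Each list count below is to be read beside these shares, and a count near them is no result about the list. Taken alone, Nanog WT had 800 genes at least 2-fold higher (7.64%) and 852 lower (8.14%), and Nanog L122A had 965 higher (9.22%) and 1108 lower (10.6%). A further 302 genes were higher in Nanog WT only, 469 were higher in Nanog L122A only, 191 were lower in WT only and 445 were lower in L122A only. Otx2, Ddx60 and Fgf15 passed 2-fold upwards in Nanog WT and downwards in Nanog L122A. At the edge of the rule, Poli lay just inside with 32.3 CPM in Nanog WT and 26.1 CPM in Nanog L122A, against 13.1 CPM in EGFP, and Rdm1 lay just outside with 45.1 CPM and 55.1 CPM, against 22.6 CPM. On the lower side Cnn3 lay just inside with 110.4 CPM and 136 CPM, against 273 CPM in EGFP, and Bcl7c lay just outside with 8.03 CPM and 7.15 CPM, against 16 CPM.

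Many genes of the naive state stood higher in both Nanog libraries. Of 15 naive pluripotency genes, all with 5 CPM, 8 were members on the higher side and 0 on the lower side. Their median log2 ratio was 1.71 in Nanog WT and 2.07 in Nanog L122A, against -0.02 and 0.01 over all genes. Esrrb, a nuclear receptor that works beside Nanog in self-renewal (chr12:87702066-87862575 in mm9), had 74.9 CPM in Nanog WT and 113 CPM in Nanog L122A, against 3.48 CPM in EGFP. Esrrb was thus 21.5-fold (17.4 to 26.8) and 32.4-fold (26.3 to 40.4) higher. Nr0b1, the nuclear receptor also called Dax1, had 62.5 CPM and 195 CPM in the Nanog libraries, against 3.14 CPM in EGFP. The L122A library stood above the WT library for this gene, at 62.1-fold (49.9 to 78.3) over EGFP against 19.9-fold (15.9 to 25.2) for WT. Zfp42, the zinc finger protein Rex1 that is used to report the naive state, had 599 CPM in Nanog WT and 1113 CPM in Nanog L122A, against 59.4 CPM in EGFP. Prdm14, a regulator of naive pluripotency and of germ cell fate, had 8.72 CPM and 8.76 CPM, against 0.345 CPM in EGFP. Both Prdm14 ratios rested on 9 counts in the EGFP library and were 25.3-fold (13.1 to 56.1) in WT and 25.4-fold (13.1 to 56.5) in L122A.

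Klf2, a Krüppel-like factor of the naive network, had 43.2 CPM in Nanog WT and 27.4 CPM in Nanog L122A, against 6.05 CPM in EGFP. Klf2 was the only naive gene called by edgeR's test, which is described below. That call was lost without any one of the Nanog libraries with or without LIF. Tcl1, a coactivator of AKT signalling, had 9.17 CPM and 11.3 CPM, against 1.26 CPM in EGFP. Gbx2 and Fbxo15 completed the 8 members, each at least 2.33-fold above EGFP in both Nanog libraries. The 7 naive genes outside the rule were Dppa3, Klf4, Tfcp2l1, Klf5, Tbx3, Nr5a2 and Nanog itself. Nanog went the other way, lower in both Nanog libraries as given above. Among the 7, Dppa3, Klf4 and Tfcp2l1 differed between the Nanog libraries, with 1 library each. Dppa3, a maternal factor that protects DNA from demethylation, had 52.7 CPM in Nanog WT and 9.66 CPM in Nanog L122A, against 8.23 CPM in EGFP. Klf4 had 7.74 CPM and 15.7 CPM against 4.75 CPM, and Tfcp2l1 had 5.95 CPM and 16.5 CPM against 6.09 CPM, so both passed 2-fold in the L122A library alone.

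The general pluripotency list behaved in the same direction. Of its 15 features (14 genes, with Tet1 listed under 2 identifiers), 8 were members on the higher side and 0 on the lower side, with median log2 ratios of 1.76 in WT and 1.31 in L122A. Fgf4, the growth factor that pushes ES cells towards differentiation, had 112 CPM in Nanog WT and 69.9 CPM in Nanog L122A, against 12.7 CPM in EGFP. Dppa5a, an RNA-binding protein with near-identical copies in the genome and so of uncertain count, had 1072 CPM and 1312 CPM, against 241 CPM in EGFP. Dppa4 and Dppa2, chromatin proteins that act as a pair, stood 4.27-fold and 3.96-fold higher in WT and 4.72-fold and 5.66-fold higher in L122A. Pou5f1, which encodes Oct4, had 237 CPM in Nanog WT and 443 CPM in Nanog L122A, against 195 CPM in EGFP. It passed 2-fold in the L122A library only, so the core factor differed less from EGFP than Esrrb or Zfp42 did. Sox2, its partner, had 73.9 CPM and 49.3 CPM, against 19.9 CPM in EGFP, and was a member.

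Genes of DNA methylation and demethylation were also among the members. Of 10 features (9 genes, with Tet1 listed under 2 identifiers), 4 were members on the higher side and 0 on the lower side. Tet2, which oxidises methylcytosine, had 149.6 CPM in Nanog WT and 206 CPM in Nanog L122A, against 17.8 CPM in EGFP. Tet1 under its first identifier had 48.8 CPM and 39.0 CPM, against 5.70 CPM in EGFP, and under the other had 45.4 CPM and 38.4 CPM, against 7.62 CPM. Dnmt3l, the partner of the de novo methyltransferases, had 60.8 CPM and 72.9 CPM, against 15.0 CPM in EGFP. Of 12 germ cell genes, 5 were members on the higher side and 0 on the lower side. They were Prdm14, the piRNA factor Mael, the meiotic axis protein Sycp3, the RNA-binding protein Dazl and the receptor Kit. Mael had 54.4 CPM in Nanog WT and 38.6 CPM in Nanog L122A, against 11.4 CPM in EGFP. Kit had 22 CPM and 28.6 CPM, against 6.43 CPM in EGFP.

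Of 17 glycolysis and hypoxia genes, 3 were members, all on the higher side. Bnip3, a mitophagy receptor induced by low oxygen, had 531 CPM in Nanog WT and 542 CPM in Nanog L122A, against 63.6 CPM in EGFP. Pdk1, a kinase that inhibits pyruvate dehydrogenase, had 232 CPM and 189.5 CPM, against 56.4 CPM in EGFP. Pfkp, a phosphofructokinase subunit of glycolysis, had 84.8 CPM and 67.7 CPM, against 13.9 CPM in EGFP. The other glycolytic genes lay closer to EGFP. Ldha was 1.54-fold higher in WT and 1.13-fold higher in L122A, and the list as a whole had median log2 ratios of 0.71 and 0.12, the second of which turned to -0.13 when libraries were scaled by total counts. Spp1, which encodes the secreted protein osteopontin, was the only member of the 17 matrix genes on the higher side, with 188 CPM in Nanog WT and 421 CPM in Nanog L122A, against 36.2 CPM in EGFP. Pecam1, an adhesion molecule of endothelium that mouse ES cells also carry, had 27.3 CPM and 18.4 CPM, against 2.76 CPM in EGFP. Myl7 and Myl4, light chains of atrial myosin, were 3.86-fold and 2.68-fold higher in WT and 4.5-fold and 18.2-fold higher in L122A, while Actc1, cardiac actin, was 40.7-fold and 356-fold lower.

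Among the 12 nameable genes furthest above EGFP were genes outside all of these lists. Myo1f, an unconventional myosin of blood cells, had 11.6 CPM in Nanog WT and 27.0 CPM in Nanog L122A, against 0.268 CPM in EGFP. Capn3, a calpain protease known from muscle, had 25.6 CPM and 19.7 CPM, against 0.612 CPM in EGFP. Adgrf5, an adhesion G protein-coupled receptor, had 5.34 CPM and 7.0 CPM, against 0.115 CPM in EGFP, where it rested on 3 counts. Enox1, a plasma membrane NADH oxidase (chr14:77556622-78121214 in mm9), had 43.5 CPM in Nanog WT and 43.8 CPM in Nanog L122A, against 2.37 CPM in EGFP. The pair of Nanog libraries agreed closely for Enox1, at 18.3-fold (14.2 to 24.1) and 18.4-fold (14.2 to 24.3) over EGFP. Krt42, Col14a1, Muc3, Nlrp4f and Tnfsfm13 were the others beside Esrrb, Nr0b1 and Prdm14. Tnfsfm13 is annotated as a readthrough transcript, so its reads may belong to its neighbours, and Nlrp4f belongs to a family of close copies.

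**Figure D2:**
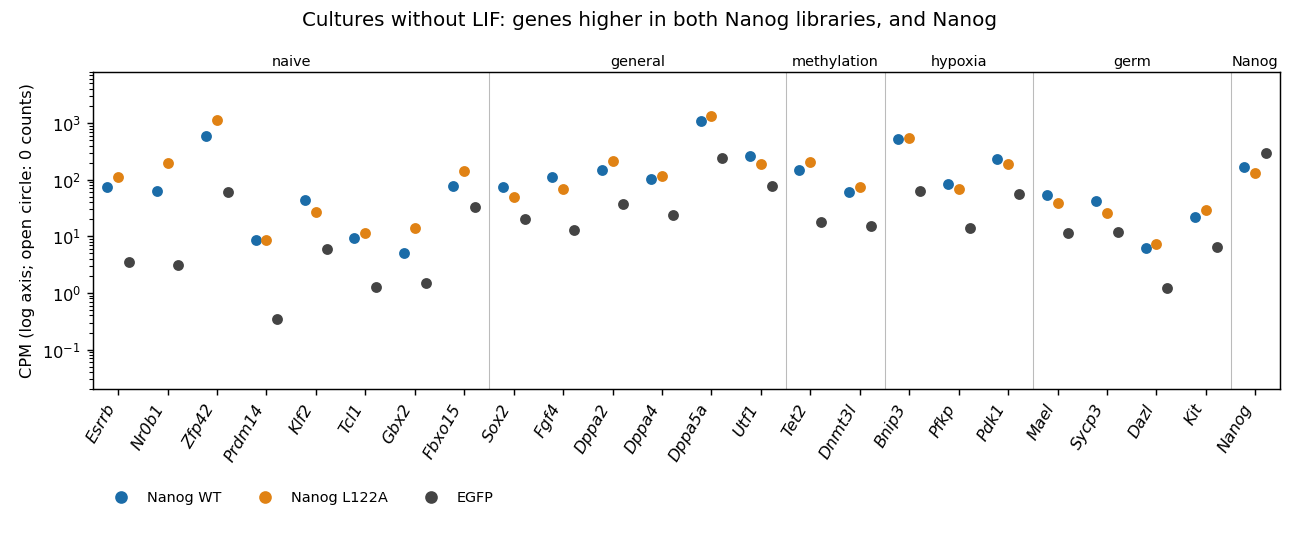
CPM without LIF on a log axis for members higher in both Nanog libraries, in groups from left to right, with Nanog at the far right. Each gene has 1 point per library (Nanog WT, Nanog L122A, EGFP), with no replicates. For every gene but Nanog both Nanog points lie above the EGFP point, by 2-fold or more, and for Nanog the EGFP point at 291 CPM is the highest.

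On the formative and primed epiblast list the medians of the Nanog libraries had opposite signs. Of 12 genes, 11 had 5 CPM, 1 was a member on the higher side and 3 on the lower side. The median log2 ratio was 0.74 in Nanog WT and -1.19 in Nanog L122A. Otx2, a homeobox factor of the formative epiblast, had 138 CPM in Nanog WT and 9.81 CPM in Nanog L122A, against 31.5 CPM in EGFP. Otx2 stood 4.39-fold (4.07 to 4.75) above EGFP in WT and 3.21-fold (2.74 to 3.77) below it in L122A. Dnmt3b, a de novo DNA methyltransferase, had 425 CPM and 97.6 CPM, against 223 CPM in EGFP. Dnmt3a, its relative, had 361 CPM and 110.4 CPM, against 56.2 CPM in EGFP. Lef1, a Wnt effector and the member on the higher side, had 116 CPM in Nanog WT and 45.5 CPM in Nanog L122A, against 19.3 CPM in EGFP. Fgf5, the textbook marker of this stage, was lower in both, with 33.6 CPM in Nanog WT and 1.86 CPM in Nanog L122A, against 112 CPM in EGFP. Fst, which encodes the activin antagonist follistatin, had 1.83 CPM and 8.0 CPM, against 104 CPM in EGFP. Sox11, the third gene on the lower side, was 2.47-fold and 2.75-fold lower. Whether the Nanog WT and Nanog L122A libraries differ beyond the spread between replicates was not tested, since each is 1 library.

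Some genes of the primitive streak stood higher in the EGFP library than in both Nanog libraries. Of 20 primitive streak and mesoderm genes, 14 stayed under 5 CPM in all 3 libraries. The other 6 had 5 CPM in the EGFP library alone, so they could be members on the lower side only. All 6 were, and their shared direction follows from that minimum. T, the T-box factor brachyury (chr17:8627287-8635361 in mm9), had 0.163 CPM in Nanog WT and 0 in Nanog L122A, against 106 CPM in EGFP. In counts this was 4 and 0 reads against 2764, so T was 649-fold (253 to 2385) lower in WT and at least 701-fold lower in L122A, with a floor of 3 counts per library in place of 0. Mixl1, a homeobox factor of the streak, had 1.63 CPM and 0.956 CPM, against 18.3 CPM in EGFP. Eomes, a T-box factor of streak and endoderm, had 3.75 CPM and 4.48 CPM, against 16.1 CPM in EGFP. The ligands of the streak stood lower too. Wnt3 had 1.79 CPM in Nanog WT and 1.11 CPM in Nanog L122A, against 23.5 CPM in EGFP. Wnt8a had 0.448 CPM and 0.252 CPM, against 14.9 CPM in EGFP. Fgf8 had 0.693 CPM and 0, against 20.2 CPM in EGFP. The 5 streak markers T, Mixl1, Eomes, Gsc and Mesp1 summed to 5.95 CPM in Nanog WT, 5.54 CPM in Nanog L122A and 141 CPM in EGFP, so that T alone made up most of the EGFP sum.

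Of 10 Wnt target features, 2 were members on the lower side, T and Sp5, and 1 on the higher side, Lef1. Sp5, a zinc finger factor and direct target of Wnt signalling, had 0.122 CPM in Nanog WT and 0 in Nanog L122A, against 26.8 CPM in EGFP. Axin2, a feedback inhibitor of the same pathway, was 1.60-fold lower in WT and 2.05-fold lower in L122A and so was no member. The promoter of Sp5 is shown because it was the member of the Wnt list furthest below EGFP after T. It covers the 250 bases before the gene's start at chr2:70474673-70474922, plus strand, from RefSeq in GRCm38.p6, and capitals mark CTTTGA or CTTTGT, the core that TCF and LEF factors bind, on either strand.
Sp5: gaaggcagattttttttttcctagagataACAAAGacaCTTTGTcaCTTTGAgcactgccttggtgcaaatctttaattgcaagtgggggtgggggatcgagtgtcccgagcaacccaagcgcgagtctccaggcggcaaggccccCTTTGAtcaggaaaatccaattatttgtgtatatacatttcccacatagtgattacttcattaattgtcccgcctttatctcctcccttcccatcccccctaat
In this window lay 4 matches, at 221, 212, 204 and 104 bases before the start. CTTTGA or CTTTGT occurred in 27.7% of all 27025 promoters of that length and in 20.3% of those of genes with 5 CPM. The share was 21.2% for the lower members and 24.2% for the higher members. The letters were thus about as frequent among the lower members as among genes with 5 CPM. A match is a description of the sequence and no evidence of binding.

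Other lineages had fewer members, and few of their genes reached 5 CPM. Of 17 extraembryonic endoderm genes, 5 had 5 CPM, and 4 were members on the lower side, namely Dab2, Col4a1, Col4a2 and Sparc. Sparc, a matrix protein that many cell types secrete, had 134 CPM in Nanog WT and 146 CPM in Nanog L122A, against 1024 CPM in EGFP. The lineage's defining factors were near 0, with 5 markers (Gata4, Gata6, Sox7, Sox17 and Dab2) summing to 9.41 CPM in Nanog WT, 4.48 CPM in Nanog L122A and 21.9 CPM in EGFP. Gata6 had 0.204 CPM and 0.0503 CPM, against 0.421 CPM in EGFP. Among 12 neural ectoderm genes, 4 had 5 CPM, and of these Nes was lower and Tubb3 higher. Nes, the intermediate filament nestin, had 4.36 CPM in Nanog WT and 3.47 CPM in Nanog L122A, against 75.7 CPM in EGFP. Tubb3, a neuronal tubulin, had 16.7 CPM and 19.4 CPM, against 6.35 CPM in EGFP. Trophectoderm markers (Cdx2, Gata3 and Elf5) summed to 0.978 CPM in Nanog WT, 1.76 CPM in Nanog L122A and 5.17 CPM in EGFP. Of the 10 genes of that list, 5 had 5 CPM, and 4 were members on the lower side. Krt8 and Krt18 among them are also keratins of other epithelia.

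Genes of the contractile cytoskeleton formed the list with the most members. Of 15 actin and contractile genes, 12 had 5 CPM, and 11 were members on the lower side against 0 on the higher side. The median log2 ratio was -3.18 in Nanog WT and -3.32 in Nanog L122A. Tagln, the actin-bundling protein transgelin (chr9:45737710-45743981 in mm9), had 10.7 CPM in Nanog WT and 9.31 CPM in Nanog L122A, against 708 CPM in EGFP. Tagln was 66.1-fold (58.5 to 74.9) lower in WT and 76.0-fold (65.8 to 88.4) lower in L122A. Acta2, smooth muscle actin, had 2.40 CPM and 1.21 CPM, against 245 CPM in EGFP. Acta1, skeletal muscle actin, had 1.26 CPM and 0.604 CPM, against 59.3 CPM in EGFP. The actins are near-identical in coding sequence, so reads may have been shared among them. Tpm1, a tropomyosin that lies along actin filaments, had 121 CPM in Nanog WT and 119.7 CPM in Nanog L122A, against 2220.2 CPM in EGFP. Cnn1, calponin, had 7.46 CPM and 4.08 CPM, against 106 CPM in EGFP. Csrp1, a LIM-domain protein of actin filaments, was 11.5-fold lower in WT and 8.56-fold lower in L122A, and the 5 other members (Cnn2, Myl9, Tpm2, Vcl and Flna) were each between 2.74-fold and 11.8-fold lower in either library.

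The targets of YAP and TEAD, the transcription factors at the end of the Hippo pathway that respond to cell density and tension, were lower as well. Of 6, 4 were members on the lower side and 0 on the higher side. Cyr61, a secreted matricellular protein, had 5.83 CPM in Nanog WT and 7.95 CPM in Nanog L122A, against 128 CPM in EGFP. Ctgf, its relative, had 33.6 CPM and 14.8 CPM, against 172 CPM in EGFP. Lats2, a kinase that restrains YAP, had 1.75 CPM and 2.32 CPM, against 19.6 CPM in EGFP. Amotl2, an adaptor that holds YAP back, had 13.2 CPM and 8.81 CPM, against 64.9 CPM in EGFP. The promoter of Cyr61, listed by RefSeq under the newer symbol Ccn1, is shown because it was the member of this list furthest below EGFP. It lies at chr3:145649986-145650235, minus strand, in GRCm38.p6, with capitals for GGAATG, the core that TEAD factors bind, here on the opposite strand.
Ccn1: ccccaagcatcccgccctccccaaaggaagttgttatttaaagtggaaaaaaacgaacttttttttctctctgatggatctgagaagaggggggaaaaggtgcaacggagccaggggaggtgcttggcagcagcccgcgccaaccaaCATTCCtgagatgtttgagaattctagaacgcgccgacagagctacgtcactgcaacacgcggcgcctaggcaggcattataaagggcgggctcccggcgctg
GGAATG occurred in the promoters of 4 of 5 genes of this list that had one in the table (Ccn1, Ankrd1, Amotl2 and Ajuba). It occurred in 15.8% of those of the lower members and in 9.97% of those of the higher members. The share was 10.1% among promoters of genes with 5 CPM and 12.6% among all promoters.

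Keratins and junction proteins were lower as well. Of 12 epithelial genes, 7 were members on the lower side and 0 on the higher side. Krt8 had 5.38 CPM in Nanog WT and 4.88 CPM in Nanog L122A, against 219 CPM in EGFP. Krt18, its partner in simple epithelia, had 33.1 CPM and 8.66 CPM, against 476 CPM in EGFP. Krt19 had 6.68 CPM and 5.03 CPM, against 164 CPM in EGFP. Claudins, which seal tight junctions, were lower by less in WT than in L122A. Cldn6 had 51.7 CPM in Nanog WT and 9.61 CPM in Nanog L122A, against 114 CPM in EGFP. Cdh1, which encodes E-cadherin, had 357 CPM and 121 CPM, against 716 CPM in EGFP. Genes of the mesenchymal transition list stood lower at the same time, 4 of 10 with 0 higher, so that E-cadherin and N-cadherin were both lower. Cdh2, N-cadherin, had 10.3 CPM in Nanog WT and 8.05 CPM in Nanog L122A, against 34.1 CPM in EGFP. Vim, the intermediate filament vimentin, had 23.4 CPM and 100.05 CPM, against 447 CPM in EGFP.

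On the lower side, 5 of 17 matrix genes and 6 of 12 collagens were members. Thbs1, thrombospondin, had 3.46 CPM in Nanog WT and 0.352 CPM in Nanog L122A, against 103 CPM in EGFP. Tnc, tenascin, had 0.122 CPM and 0.101 CPM, against 7.69 CPM in EGFP, on 3 and 2 counts against 201. Col1a1, a chain of type I collagen, had 3.30 CPM and 2.57 CPM, against 14.4 CPM in EGFP. Caveolae, membrane pits that flatten under tension, had 2 members of 6, both lower. Cav1, their coat protein, had 0 counts in both Nanog libraries, against 6.89 CPM in EGFP, and was at least 56.4-fold lower in WT and at least 45.6-fold lower in L122A. Ptrf, which encodes cavin-1, had 5.01 CPM and 7.65 CPM, against 33.2 CPM in EGFP. Markers of fibroblasts, a cell type that shares these genes, were low throughout. The 10 markers summed to 12 CPM in Nanog WT, 8.0 CPM in Nanog L122A and 29.2 CPM in EGFP, with 2 of 10 at least 2-fold lower in both. Postn and Lum were at 0 in Nanog WT, Fap, Twist2, Postn and Lum were at 0 in Nanog L122A, and none was at 0 in EGFP. Their part in the difference was not tested.

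**Figure D3:**
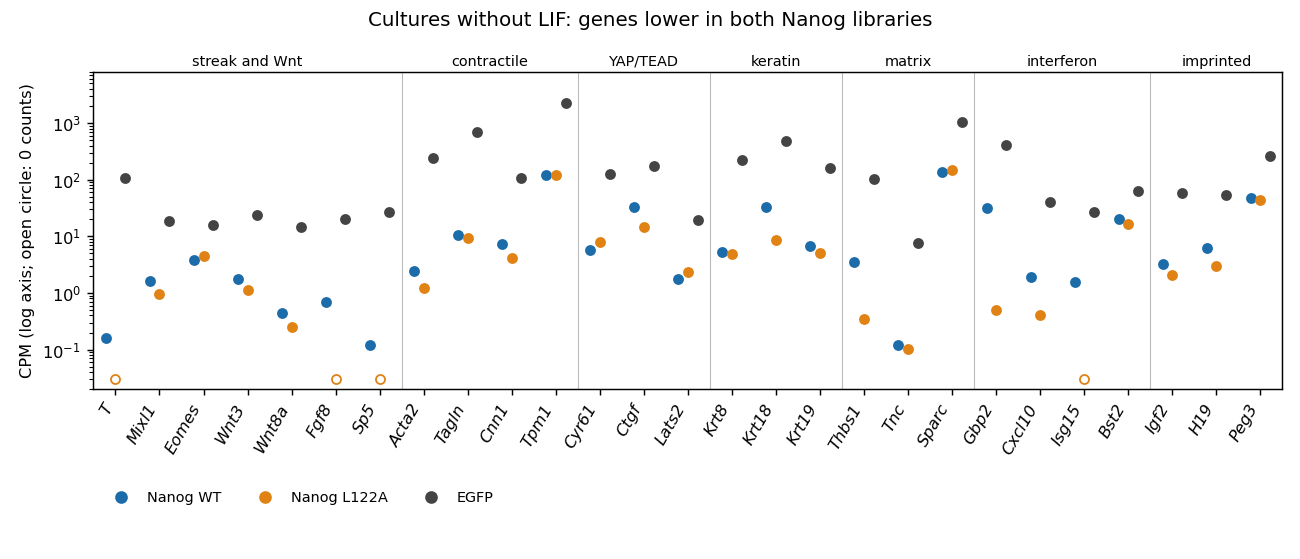
CPM without LIF on a log axis for members lower in both Nanog libraries, grouped from left to right. Each gene has 1 point per library (Nanog WT, Nanog L122A, EGFP), with no replicates, and a library with 0 counts is drawn as an open circle at the foot of the axis. The EGFP point lies above both Nanog points for every gene drawn, with Tagln at 708 CPM and Tpm1 at 2220.2 CPM among the highest.

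Interferon response genes stood lower, more so in Nanog L122A. Of 12, 6 were members on the lower side and 0 on the higher side, with median log2 ratios of -2.65 in Nanog WT and -5.15 in Nanog L122A, the same with Isg15 and Gbp3, which had 0 counts in L122A, set at their floor. Gbp2, a guanylate-binding protein of cell defence with close copies in its family, had 31.2 CPM in Nanog WT and 0.503 CPM in Nanog L122A, against 404 CPM in EGFP. Cxcl10, a chemokine, had 1.87 CPM and 0.403 CPM, against 40.0 CPM in EGFP. Isg15, a ubiquitin-like modifier, had 1.59 CPM and 0, against 26.4 CPM in EGFP. Irf1, a transcription factor of the response, had 49.1 CPM in Nanog WT and 9.66 CPM in Nanog L122A, against 117 CPM in EGFP. Bst2, tetherin, had 20.5 CPM and 16.5 CPM, against 62.9 CPM in EGFP. Not every gene of the response followed. Ifit1, which blocks the translation of foreign RNA, was 1.05-fold higher in WT and 6.95-fold lower in L122A. Cxcl11, a chemokine not on the list, was among the 12 furthest below EGFP, with 0.326 CPM in Nanog WT and 0 in Nanog L122A, against 30.1 CPM.

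The promoters of Cxcl10 and Isg15 are shown as examples of members whose promoters hold the repeat marked below. Cxcl10 lies at chr5:92348890-92349139 and Isg15 at chr4:156200819-156201068, both on the minus strand of GRCm38.p6, and capitals mark TTTC, any 2 bases and TTTC, the repeat of interferon-stimulated response elements, here read from the opposite strand.
Cxcl10: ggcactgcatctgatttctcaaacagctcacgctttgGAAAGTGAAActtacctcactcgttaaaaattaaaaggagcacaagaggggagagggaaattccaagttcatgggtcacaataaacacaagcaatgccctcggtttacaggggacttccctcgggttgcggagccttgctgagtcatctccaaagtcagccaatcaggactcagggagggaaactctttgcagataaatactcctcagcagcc
Isg15: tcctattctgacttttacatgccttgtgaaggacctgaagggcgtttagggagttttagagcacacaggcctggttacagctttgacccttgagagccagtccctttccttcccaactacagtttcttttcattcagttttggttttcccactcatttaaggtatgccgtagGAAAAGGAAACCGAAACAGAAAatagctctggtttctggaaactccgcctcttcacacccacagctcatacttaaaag
Isg15 held 3 overlapping matches and Cxcl10 held 1. The repeat was held by 7 of the 10 genes of this list with a promoter in the table (Ifit1, Ifit3, Isg15, Gbp2, Gbp3, Bst2 and Cxcl10), 2 of which, Ifit1 and Ifit3, were no members. It occurred in 5.05% of the promoters of the lower members and 1.42% of those of the higher members. The share was 2.45% among promoters of genes with 5 CPM and 3.04% among all promoters.

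Of 15 imprinted features, 6 were members on the lower side and 1 on the higher side. Igf2, a fetal growth factor expressed from the paternal copy, had 3.22 CPM in Nanog WT and 2.11 CPM in Nanog L122A, against 57.3 CPM in EGFP. H19, the maternally expressed RNA beside it, had 6.19 CPM and 3.02 CPM, against 53.1 CPM in EGFP. Both genes of this reciprocally imprinted pair were therefore lower. Peg3, a zinc finger protein, had 48.3 CPM in Nanog WT and 44.6 CPM in Nanog L122A, against 259 CPM in EGFP. Cdkn1c, a cyclin-dependent kinase inhibitor that restrains growth, was the one on the higher side, with 36.1 CPM and 55.8 CPM, against 8.12 CPM in EGFP. Its relative Cdkn1a, a target of p53, had 30.7 CPM in Nanog WT and 20.9 CPM in Nanog L122A, against 64.0 CPM in EGFP.

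Signalling pathways had members in both directions, many of them lists with only 1 or 2 members each way. Over all genes with 5 CPM, 4.73% were higher and 6.3% lower members, so such small counts are no result about a pathway. The BMP list had 3 members of 11, all lower. Bmp2, a ligand, had 0.407 CPM in Nanog WT and 0.101 CPM in Nanog L122A, against 8.88 CPM in EGFP, and its targets Id2 and Msx2 were 2.25-fold and 10.4-fold lower in WT and 4.27-fold and 4.98-fold lower in L122A. Nodal, the ligand of another branch of the same family, had 33.4 CPM in Nanog WT and 34.3 CPM in Nanog L122A, against 61.1 CPM in EGFP, and was no member. Among 11 FGF and ERK feedback genes, the phosphatases Dusp4 and Dusp6 and the early response factor Egr1 were lower and the inhibitor Spry4 was higher. Spry4 had 42.4 CPM in Nanog WT and 30.4 CPM in Nanog L122A, against 13.8 CPM in EGFP. Dusp4 had 4.52 CPM and 5.49 CPM, against 33.0 CPM in EGFP. The LIF and STAT3 list had 2 members of 13, Gbx2 and the LIF receptor Lifr, both higher. Lifr had 13.7 CPM and 20.7 CPM, against 5.55 CPM in EGFP. Socs3 and Junb, direct targets of STAT3, stayed under 5 CPM in all 3 libraries and so could not be members, but were the 2 genes of this list called by edgeR's test, both lower. Socs3 had 0.652 CPM in Nanog WT and 0.201 CPM in Nanog L122A, against 4.10 CPM in EGFP (adjusted p = 0.0448, edgeR). Its call was lost without any one of the Nanog libraries with or without LIF, by limma and under total counts. Junb had 0.244 CPM and 0.151 CPM, against 4.06 CPM in EGFP (adjusted p = 0.0246, edgeR), and its call was lost without either Nanog library without LIF. With LIF, Socs3 stood at 18 to 25.2 CPM in the 3 libraries.

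Of 10 retinoid response genes, 3 were members on the lower side. Crabp2, a carrier of retinoic acid, had 3.71 CPM in Nanog WT and 2.21 CPM in Nanog L122A, against 13.4 CPM in EGFP. Cyp26a1, the enzyme that breaks retinoic acid down, had 1.18 CPM and 0.252 CPM, against 7.01 CPM in EGFP. Dhrs3, a retinal reductase, was 2.80-fold and 3.40-fold lower. Cyp51, the 1 member of 13 cholesterol synthesis features, was lower, as were Cdkn1a, Perp and Phlda3 of 12 p53 targets. Over all genes with 5 CPM, 6.3% were lower members. The 11 genes of the amino acid and integrated stress response and the 3 cleavage-stage features had no member in either direction. Zscan4c, a cleavage-stage gene with close copies, had 1.30 CPM in Nanog WT and 15.5 CPM in Nanog L122A, against 4.90 CPM in EGFP. Across all 35 lists, 34 distinct features were members on the higher side and 81 on the lower side.

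Beyond the lists, the 12 nameable genes furthest below EGFP included secreted and neuronal products. Edn1, the vasoconstrictor peptide endothelin, had 0 in Nanog WT and 0.252 CPM in Nanog L122A, against 39.2 CPM in EGFP. Nefm, a neurofilament subunit, had 0.122 CPM and 0.101 CPM, against 12.7 CPM in EGFP. Ppp4r4, a regulatory subunit of protein phosphatase 4, had 1.39 CPM and 0.403 CPM, against 81.0 CPM in EGFP. Nts, the peptide neurotensin, had 0 counts in both Nanog libraries, against 133 counts in EGFP, and was at least 41.7-fold lower in WT and at least 33.7-fold lower in L122A. Sprr2a3, of the epidermal envelope, and Iigp1, an interferon-inducible GTPase, belong to families of close copies and are uncertain. T, Sp5, Acta2, Cav1, Cxcl11 and Tagln were the rest of the 12.

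**Figure D4:**
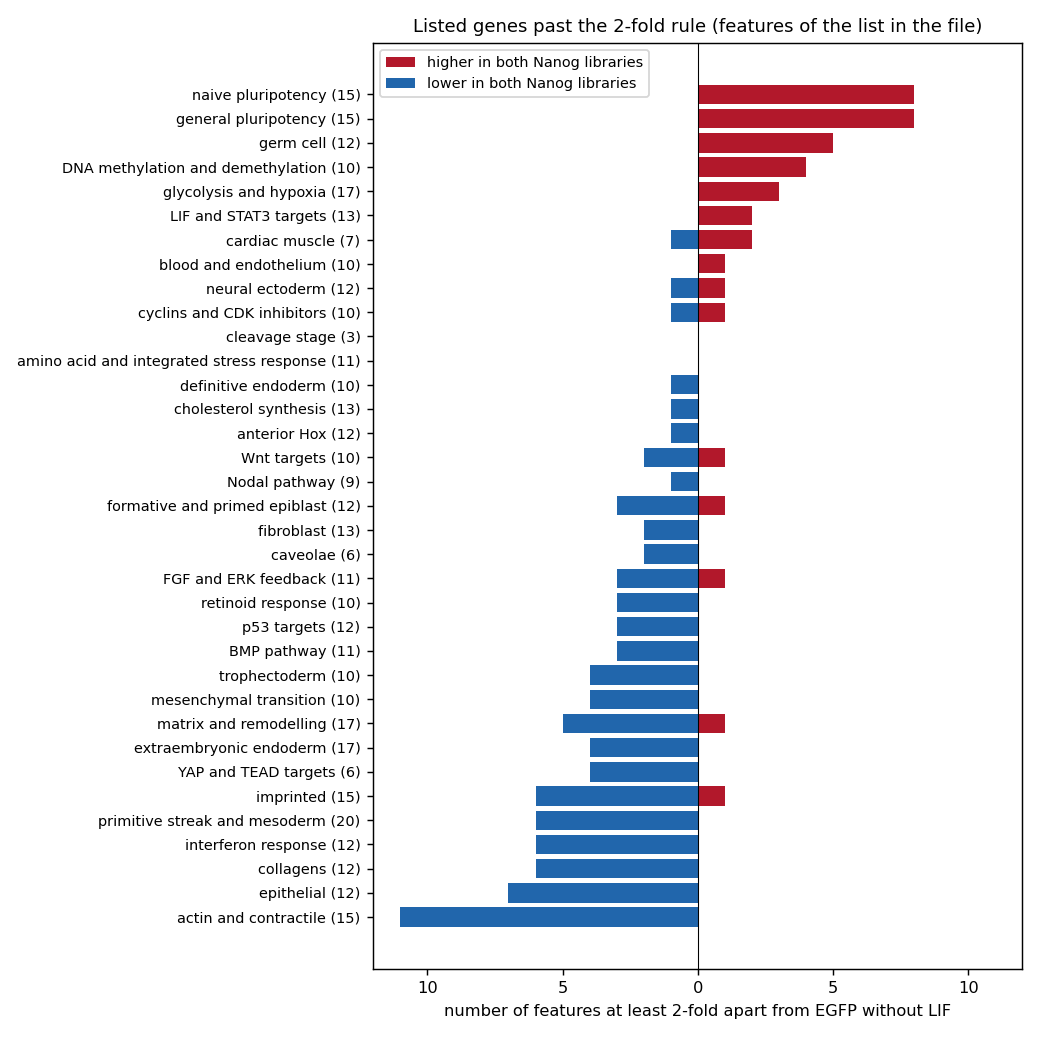
Number of features of each of the 35 gene lists at least 2-fold higher (to the right) or lower (to the left) in both Nanog libraries than in EGFP without LIF, with the size of the list beside its name. The naive and general pluripotency lists reach furthest to the right, with 8 each, and the actin and contractile list furthest to the left, with 11.

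The same genes were then read in the cultures with LIF and with RA, whose libraries share none with the comparison without LIF. Of the 495 higher members, 54 (10.9%) were also at least 2-fold higher in both Nanog libraries with LIF, where 1.94% of 10216 genes were, and 7 were at least 2-fold lower. Of the 660 lower members, 162 (24.5%) were also lower with LIF, where 3.16% of genes were, and 1 was higher. These were 27.3% of the 198 genes higher and 50.2% of the 323 genes lower with LIF. The median log2 ratio of the higher members with LIF was 0.45 in WT and 0.28 in L122A, and that of the lower members was -0.94 and -0.83. With RA, 65 of the higher members (13.1%) were again higher, where 2.78% of 10737 genes were, and 5 were lower. Of the lower members, 206 (31.2%) were again lower with RA, where 6.05% of genes were, and 17 were higher. These were 21.7% of the 299 genes higher and 31.7% of the 650 genes lower with RA. The shares of members are over all members, while the shares of genes beside them are over genes with 5 CPM in that culture. Of the higher and lower members, 479 and 436 had 5 CPM with LIF, and 354 and 553 had it with RA. The 9 libraries come from the same 3 transfectants, so in every culture a trait of the EGFP line cannot be told apart from the effect of the transgene.

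With LIF, 0 of the 15 naive genes were higher members and 2 were lower, Klf2 and Dppa3. Dppa3 had 7.34 CPM in Nanog WT and 2.12 CPM in Nanog L122A with LIF, against 29.6 CPM in EGFP. Esrrb had 126 CPM in Nanog WT and 187 CPM in Nanog L122A with LIF, against 115 CPM in EGFP. With RA, 6 of them were higher, and Esrrb had 5.76 CPM in Nanog WT and 138 CPM in Nanog L122A, against 0.155 CPM in EGFP. Enox1 had 49.4 CPM and 49.0 CPM with LIF, against 52.6 CPM in EGFP, and Tet2 had 268 CPM and 242 CPM, against 173 CPM in EGFP. Bnip3 differed in another way, standing high in both Nanog libraries with LIF too, at 367 CPM and 278 CPM, against 58.0 CPM in EGFP. Acta2, Tagln and Krt8 were lower in the Nanog libraries in all 3 cultures. Acta2 had 1.32 CPM in Nanog WT and 0.902 CPM in Nanog L122A with LIF, against 120.4 CPM in EGFP. With RA, Acta2 had 393 CPM and 73.3 CPM, against 3603 CPM in EGFP. Of the 15 contractile genes, 7 were lower and 1 higher with LIF, and 12 were lower and 0 higher with RA. Krt8 had 4.40 CPM and 6.68 CPM with LIF, against 45.7 CPM in EGFP. T was low in every library but the EGFP one without LIF, at 0.636 CPM in Nanog WT and 0 in Nanog L122A with LIF, against 6.74 CPM in EGFP. Of the 10 retinoid response genes, 2 were higher and 1 lower with RA. Crabp2, one of those that were higher, had 108 CPM in Nanog WT and 91.7 CPM in Nanog L122A, against 15.0 CPM in EGFP.

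**Figure D5:**
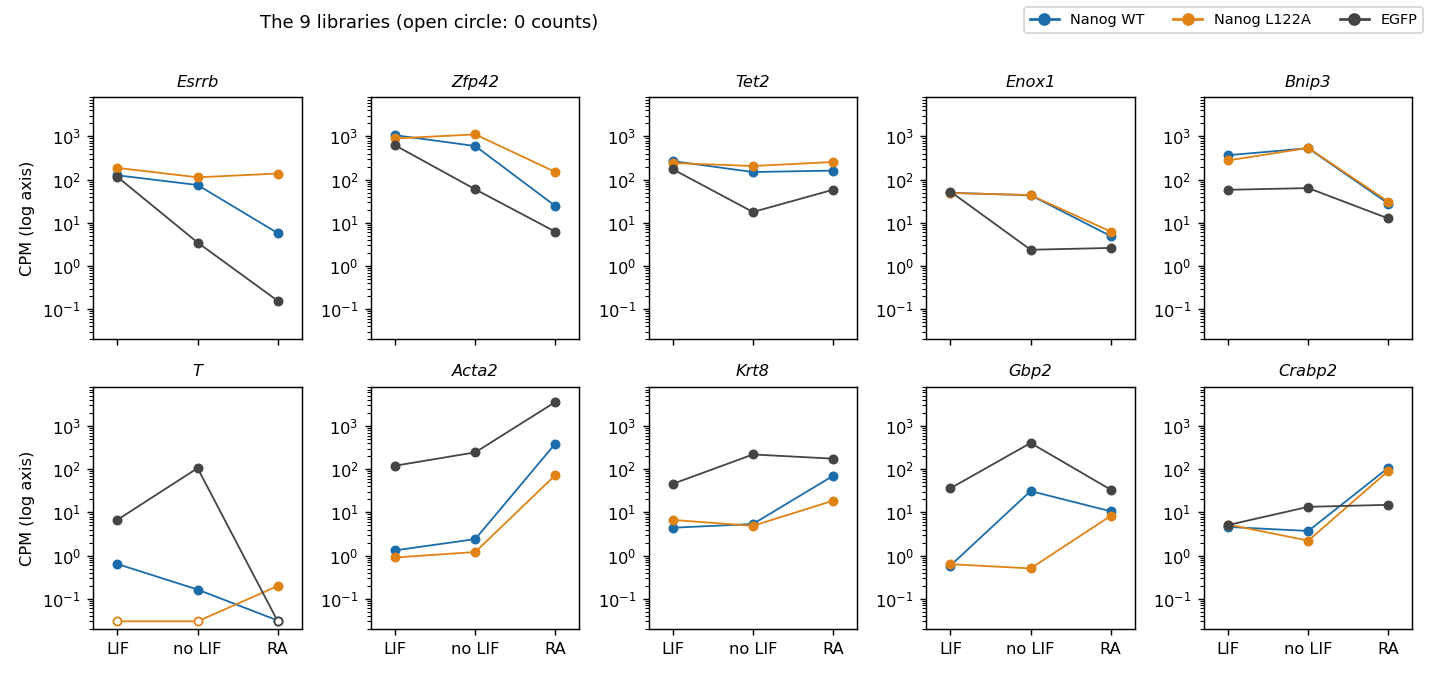
CPM on a log axis in the 9 libraries for 10 genes, with the culture along the horizontal axis (LIF, no LIF, RA) and 1 line per transfectant (Nanog WT, Nanog L122A, EGFP). Esrrb, Zfp42, Tet2 and Enox1 part from EGFP without LIF, Bnip3, Acta2 and Krt8 differ already with LIF, and Crabp2 crosses over with RA, at 108 CPM and 91.7 CPM against 15.0 CPM in EGFP.

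A test across all genes was run by taking Nanog WT and Nanog L122A as 2 libraries of 1 class in each culture, so that the spread is the difference between them and rests on 3 residual degrees of freedom. By edgeR's quasi-likelihood test with Benjamini-Hochberg adjustment, 0.782% of 15595 genes were called higher and 281 genes (1.8%) lower in the Nanog class without LIF at an adjusted p below 0.05. Scaling by total counts in place of TMM factors gave 62 higher and 274 lower. Of the members, 92 of 495 and 260 of 660 were called, a description only, since the rule used the same libraries. The same holds for the p-values of single members, whose direction the rule had fixed in both Nanog libraries. Enox1 rose by 4.20 on the log2 scale (SE 0.36, adjusted p = 0.00248, edgeR), Tet2 by 3.32 (SE 0.39, adjusted p = 0.00672) and Bnip3 by 3.08 (SE 0.30, adjusted p = 0.00352). Nes fell by 4.27 (SE 0.31, adjusted p = 0.00138, edgeR), Tnc by 6.04 (SE 0.49, adjusted p = 0.00254) and Nt5e, the ectoenzyme that makes adenosine, by 5.42 (SE 0.41, adjusted p = 0.00138). T fell by 10.14 (SE 1.35, adjusted p = 0.022, edgeR), Tagln by 6.14 (SE 0.67, adjusted p = 0.013) and Krt8 by 5.42 (SE 0.73, adjusted p = 0.0235). T and Tagln were no longer called without either Nanog library without LIF, with adjusted p up to 0.105 and 0.103 (edgeR), and Krt8 was lost also without either Nanog library with LIF, with adjusted p up to 0.152. By contrast Esrrb, with a log2 ratio of 4.75 and an SE of 1.93, did not pass (adjusted p = 0.283, edgeR), nor did Gbp2 at -4.66 with an SE of 1.56 (adjusted p = 0.209). Nanog was not called either, at -0.97 with an SE of 0.27 (adjusted p = 0.102, edgeR).

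These calls depended on both Nanog libraries without LIF. Without the Nanog L122A library 21 genes were called higher and 43 lower, and without the Nanog WT library 97 and 225, with the remaining Nanog library assumed to vary like the others. Leaving out Nanog L122A or Nanog WT with LIF gave 44 and 166 or 46 and 173, and leaving out either of them with RA gave 320 and 472 or 328 and 469. Of 78 called genes among those that the text may name, 14 were called in every one of these 8 fits, namely Enox1, Tet2, Bnip3, Nes, Nefm, Tnc, Nt5e, Ppp4r4, Lats2, Ctgf, Msx2, Ptrf, Zfp703 and one of the Tet1 identifiers. A fit with culture as an additive term, which asks for the mean difference over the 3 cultures, called 92 genes higher and 331 lower, and 12 of those higher and 142 of those lower were among the calls without LIF. Of the 14 genes, 8 were not called by it, namely Enox1, Tet2, Nt5e, Ppp4r4, Lats2, Ptrf, Zfp703 and Tet1, and nor was T. Tnc and Zfp703 were not called by limma. The EGFP library without LIF cannot be left out, since no other stands for its group.

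The difference between cultures was tested in the same fit. Comparing the Nanog against EGFP difference without LIF with that with LIF, edgeR called 1 gene (0.00641%), Enox1, at 4.29 on the log2 scale (SE 0.43, adjusted p = 0.0455), and 0 in the other direction, with 1202 genes at an unadjusted p below 0.05 and 79 and 42 genes called by DESeq2. Enox1 was no longer called without any one of the Nanog WT or Nanog L122A libraries with LIF or without LIF. Comparing without LIF with RA, edgeR called 1 gene higher (0.00641%), Tubb3, and 6 lower (0.0385%), namely Nanog, Crabp2, Nt5e, Slc2a3, Mpped2 and Zfp703. Nanog differed by -8.99 (SE 0.50, adjusted p = 0.000276, edgeR) and had 0.871 CPM in EGFP with RA. Nanog stayed called without any one library that could be left out, while each of the other 6 genes was lost without the Nanog L122A library without LIF. For the naive genes other than Nanog no difference between the cultures passed this test, with Esrrb at 4.31 (SE 2.23, adjusted p = 0.736, edgeR) between the cultures without and with LIF.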

How the data were processed

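Reads were aligned to mm9 with TopHat2 2.0.11, per the submitters' processing notes, with the counting tool, annotation and strand setting not given in the sources used here. Per the file headers, the authors' deposited table holds raw counts for 33495 genes and an FPKM column per library. Those deposited FPKM values equal count over length and total within 1% for 100% of genes above 5 FPKM. The columns of the cultures with LIF carry another name than the labels and were matched by elimination. Of the identifiers, 28692 matched a symbol. Counts were scaled to CPM with TMM factors over the 9 libraries (edgeR 4.0.16, R 4.3.3). Log2 ratios used a prior count of 2. Intervals are exact 95% Poisson intervals of a ratio and cover counting error only. A library with 0 counts was set to a floor of 3 counts. The test across genes was edgeR's quasi-likelihood test on classes (Nanog, EGFP) by culture, for genes with 1 CPM in at least 1 library, with Benjamini-Hochberg adjustment over all 15595. Nothing in the labels says that samples came from separate cultures, so p-values measure only the spread between these libraries. Tested on simulated data, this fit recovered 10% of 2-fold, 80% of 4-fold and 100% of 8-fold changes, with 5 false calls of 14849 genes. In those data all libraries shared the same mean for each gene, apart from the genes changed in EGFP without LIF. They held no differences between cultures and no trait of a single line, so they cannot give the rate of false calls in the real libraries. DESeq2 1.42.0 and limma 3.58.1 on log2(FPKM + 1) were alternatives. Named were Nanog, the 12 members furthest from EGFP each way by the nearer Nanog library, members of 35 gene lists, and genes called between cultures. Predicted genes, pseudogenes and ribosomal or mitochondrial RNA genes were counted but not named, and a few other genes are not reported here. The genes just inside and outside the rule and those of opposite direction were named after their values were seen. The members and lists were chosen with earlier results of these data known. A CArG box was searched as well as the other motifs. It was found in 3.23% of the promoters of the lower members and 0.855% of those of the higher members. The share was 1.17% among promoters of genes with 5 CPM and 1.40% among all. The promoter table matched 495 of the lower and 351 of the higher members.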

Additional observations from a re-analysis of the deposited data

Results flagged for a closer look

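Differences between Nanog and EGFP that differed between cultures came from edgeR's test of that difference over all genes. Enox1 stood 4.29 higher on the log2 scale without LIF than with LIF. The other 7 genes compare the culture without LIF with that with RA. Tubb3 differed by 3.97, Slc2a3, a glucose transporter, by -3.62, Crabp2 by -4.91, Mpped2 by -3.84, Nt5e by -6.88, Zfp703 by -6.16 and Nanog by -8.99. Slc2a3 had 666 CPM in Nanog WT and 402 CPM in Nanog L122A without LIF, against 1213 CPM in EGFP, and 229 CPM and 259 CPM with RA, against 45.2 CPM in EGFP. Mpped2 had 111 CPM and 145 CPM with RA, against 12.4 CPM in EGFP.

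Some listed genes were 2-fold apart from EGFP in one direction without LIF and in the other direction in another culture, in both Nanog libraries. Klf2 was higher without LIF and lower with LIF, where it had 21.7 CPM in Nanog WT and 26.6 CPM in Nanog L122A, against 64.2 CPM in EGFP. Lef1 was higher without LIF and lower with RA, at 1.85 CPM and 0.535 CPM, against 6.56 CPM in EGFP. Tubb3 went the same way, at 2.38 CPM and 3.04 CPM with RA, against 15.0 CPM in EGFP. Cyp26a1 was lower without LIF and higher with RA, at 499 CPM in Nanog WT and 484 CPM in Nanog L122A, against 103 CPM in EGFP. Crabp2 had 108 CPM and 91.7 CPM with RA, against 15.0 CPM in EGFP, and Nt5e had 9.24 CPM and 6.87 CPM, against 2.92 CPM. In edgeR's test of the difference between cultures Tubb3, Crabp2 and Nt5e passed, while Klf2 (adjusted p = 0.328), Lef1 (adjusted p = 0.295) and Cyp26a1 (adjusted p = 0.15) did not.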

How the results depend on the processing

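The counts of members moved with the rule. They were 1173 higher and 1038 lower at a minimum of 1 CPM, 187 and 330 at 20 CPM, 956 and 1201 at 1.5-fold, and 150 and 258 at 4-fold. With 1 Nanog library at a time they ran from 800 to 965 higher and from 852 to 1108 lower. RLE factors gave 478 and 690, total counts 377 and 765, libraries without ribosomal RNA and mitochondrial genes 501 and 712, and FPKM 378 and 769. Total counts shifted the median log2 ratio of all genes to -0.06 in Nanog WT and -0.25 in Nanog L122A, and left 29 of the higher members also higher with LIF. In the test without LIF, higher and lower calls were 571 and 642 by DESeq2, 775 and 960 with no filter beyond 1 count, 418 and 435 in the 6 libraries with and without LIF, and 62 higher under total counts. Leaving out 1 library gave 21 to 328 higher and 43 to 472 lower. For the difference between the cultures without and with LIF, calls were 79 and 42 by DESeq2, 268 and 135 with no filter, and 64 and 14 in those 6 libraries. With at least 1 CPM in 3 libraries, by limma or under total counts, 0 were higher. Leaving out 1 library gave 0 to 22 higher and 0 to 1 lower. For the difference from RA, calls were 88 and 158 by DESeq2, 29 and 42 by limma, 233 and 401 with no filter, and 0 higher under total counts. Leaving out 1 library gave 0 to 19 higher and 1 to 64 lower. The cause of these changes was not tested. Under total counts the median log2 ratio in Nanog L122A changed sign for 3 lists, to -0.13 for glycolysis and hypoxia (0.12 with TMM factors), -0.04 for the amino acid and integrated stress response (0.22) and -0.12 for cyclins and CDK inhibitors (0.13). Among named genes, Nanog, Lef1 and Tubb3, none of them called without LIF, changed sign in the fit with culture as an additive term, and the others kept their direction under the alternatives run on them. No paired analysis was possible because each group holds 1 library and so the groups share fewer than 2 replicate numbers. That additive fit gave 92 higher and 331 lower and asks for the mean over the 3 cultures, not for the difference without LIF. Depth limits genes near 0, where a ratio rests on the floor of 3 counts.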
